A study of Mus musculus with 6 samples.

Results

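The 36 genes described here encode nuclear subunits of mitochondrial complex I (NADH:ubiquinone oxidoreductase). They were taken by gene symbol from a fixed list, and no cut on their measured values was used. Earlier results of these data were, however, known when the list was chosen. All 36 of 36 listed genes were found among the 51789 genes of the count table. Messenger RNA was measured in 6 libraries of neutrophils drawn from mouse bone marrow with beads against Ly6G, a neutrophil surface protein, at a stated purity above 95%. By their labels 3 libraries are Snph control (WT) and 3 are Snph knockout (KO). Snph encodes syntaphilin, which docks mitochondria on microtubules. The labels give no strain, age, sex, deleted exon or treatment, and no label ties the libraries to separate mice, so a p-value here measures only how far these libraries spread, which may be technical. In bulk RNA of this kind, fewer cells of a type and less RNA per cell cannot be told apart.

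Complex I is the entry point of electrons from NADH into the respiratory chain. It has the shape of an L: a matrix arm, which oxidises NADH and passes the electrons through a flavin and a row of iron-sulfur clusters to ubiquinone, and a membrane arm, which pumps protons. The catalytic core of the membrane arm is encoded by mitochondrial DNA and was not analysed here, whereas the core of the matrix arm and the accessory subunits around both arms are encoded in the nucleus. Neutrophils make most of their ATP by glycolysis and hold few mitochondria.

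Libraries were made with the QuantSeq kit, which reads a tag near the 3′ end of each polyadenylated transcript, so a count follows the number of transcripts and was not divided by length. Total counts ran from 7018388 to 9664381, and levels are given as CPM (counts per 1e6 counts) scaled by trimmed-mean (TMM) factors. The defining neutrophil genes were abundant in all 6 libraries: 10 markers, among them Ly6g and S100a8, summed to 256130 to 276180 CPM in WT 1 to 3 and to 294143 to 312547 CPM in KO 1 to 3, with 2 of 10 called higher. Most of the sum came from S100a8 (109253 to 122498 against 129952 to 142071 CPM) and S100a9 (96130 to 102035 against 108450 to 116936 CPM). Retnlg and Mmp9 were also higher without overlap. In contrast, Ly6g (930 to 1120 against 1117 to 1272 CPM), Camp, Ltf, Mmp8, Cxcr2 and Csf3r overlapped between the groups. Markers of tissue macrophages were lower in the KO-labelled libraries, with 9 of 9 called and sums of 1002 to 1084 against 462 to 569 CPM. Sums for neutrophil precursors (44.2 to 56.9 against 33.5 to 47.7 CPM) and proliferating cells (149 to 195 against 145 to 182 CPM) overlapped between the groups, and none of these 5 and 6 markers was called. The sum of 5 platelet markers was lower (351 to 391 against 303 to 335 CPM, 3 called), though its most abundant gene, Gp1bb, overlapped between the groups (222 to 248 against 218 to 267 CPM). The sum of 7 B and plasma cell markers was higher (234 to 265 against 344 to 794 CPM, 2 called) through Igkc and Jchain, while Cd79b was lower without overlap (7.85 to 9.42 against 4.99 to 5.38 CPM). Monocyte sums overlapped (1451 to 1690 against 1518 to 1681 CPM). The sum of eosinophil and basophil markers was lower (46.5 to 64.4 against 28.6 to 41.1 CPM, 1 called), mostly through Ccr3 (29.7 to 39.2 against 10.7 to 22.7 CPM), whereas erythroid (1277 to 2117 against 1393 to 2771 CPM) and T and NK cell sums (2.14 to 5.996 against 2.29 to 3.34 CPM) overlapped. No marker on these lists was at 0 in every library. The part of these cell types in the values below was not tested. Snph itself went against the labels, with 0 counts in WT 1 to 3 and 5, 2 and 8 in KO 1, KO 2 and KO 3, so the groups are called WT-labelled and KO-labelled throughout. Were the labels exchanged, every signed fold change and every higher or lower count given here would change direction.

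Every one of the 36 subunit genes was expressed, with 76 to 1971 counts per gene and library, and all 36 passed the filter on low counts. Their summed level was 2233 ± 94.2 CPM in the WT-labelled libraries (SD, n = 3), or 0.231% ± 0.0060 of all counts (SD, n = 3). Levels differed 16.3-fold within the complex, from 12.8 CPM for Ndufs3 to 209 CPM for Ndufa3 (means over 6 libraries). A high tier of 12 genes above 95 CPM made up 67.5% of the sum, and 18 genes lay below 35 CPM. The order of the genes was nearly the same in both groups: Spearman's rho between the WT-labelled and KO-labelled means was 0.985 across the 36 genes, which share libraries and are not independent replicates. A tag count also depends on how well a 3′ end is read, and this was not tested for these genes.

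**Figure D1:**
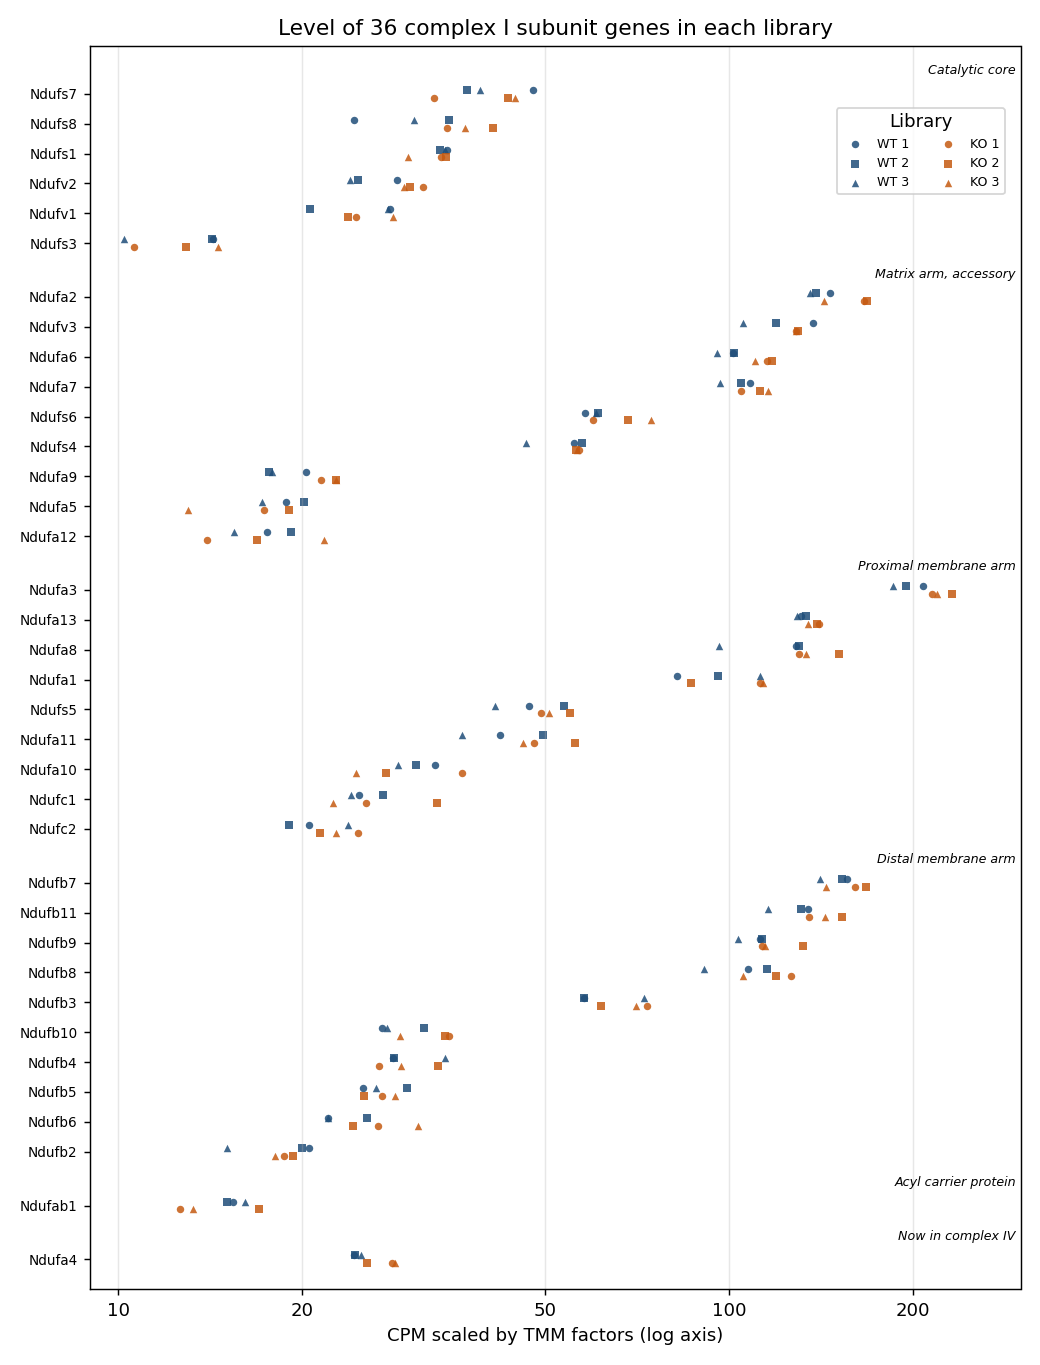
Level of each of the 36 subunit genes in every library (CPM scaled by TMM factors, log axis), grouped by place in the complex and sorted by mean level. Blue symbols are WT-labelled and orange symbols KO-labelled libraries; genes differ from each other far more than the libraries differ within a gene, and the core genes, at mean levels of 12.8 to 40.8 CPM, all lie in the lower part.

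The 6 listed core genes of the matrix arm lay in a narrow low band, from 12.8 to 40.8 CPM. Ndufs7, whose product carries the iron-sulfur cluster next to the ubiquinone site, had the highest mean of them. Ndufs8 (33.7 CPM), which holds the clusters before it, and Ndufs1 (33.4 CPM), the largest subunit, came next and overlapped between libraries. Ndufv2 (28.0 CPM) and Ndufv1 (25.4 CPM), which form the tip of the arm where NADH binds, were close to each other. Accessory genes covered a wider range in each arm. The 9 of the matrix arm ran from 17.4 CPM for Ndufa12 to 149.7 CPM for Ndufa2, the 9 of the proximal membrane arm from 22.04 CPM for Ndufc2 to 209 CPM for Ndufa3, and the 10 of the distal membrane arm from 18.6 CPM for Ndufb2 to 154 CPM for Ndufb7. Subunits of one kind did not share a level: of the cysteine-rich subunits on the intermembrane side, Ndufa8 was at 128 CPM, Ndufb7 at 154 CPM and Ndufs5 at 49.5 CPM. The X-linked genes Ndufa1 and Ndufb11 stood at 101 and 136 CPM. Ndufab1, the acyl carrier protein that also serves mitochondrial fatty acid synthesis, was second from the bottom at 14.9 CPM, although the complex holds a copy in each arm.

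The subunit genes share features that did not enter their choice. They lie on 15 chromosomes (GENCODE vM21, GRCm38) and are short: the median coding length was 439.5 bases against 1344 bases over 9433 tested protein-coding genes, and 33 of 36 were below that value. The median number of exons was 4 against 9. For 9 of 36 genes (25%) a protein-coding gene on the other strand starts within 1000 bases upstream and points away, compared with 11.3% of the tested protein-coding genes. The closest pairs are Ndufa7 with the ribosomal protein gene Rps28 (starts 10 bases apart) and Ndufb9 with Tatdn1 (18 bases apart). Across the 36 genes, Spearman's rho of level was -0.391 with transcript length and -0.140 with coding length. Both are given as a description of genes measured in the same libraries.

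Promoters were read because several factors of respiratory genes have known motifs. RefSeq promoters (GRCm38.p6, 250 bases before to 50 after the start) were found for 33 of the 36 genes and searched on both strands. The YY1 motif AAGATGGCG was in 5 of 33 (15.2%), beside 4.16% of 7833 promoters of tested genes and 1.64% of all 27025. The NRF1 motif GCGCATGCG was in 2 of 33 (6.06%; 4.53% of tested, 1.95% of all) and the ETS motif CCGGAAG, bound by GABP, in 4 of 33 (12.1%; 22.5% of tested, 9.93% of all). The NRF1 motif overlaps its own reverse complement, so that the matches on both strands of Ndufa11 count once. The 11 promoters with a match held 1 of the 3 motifs each, and a match describes letters, not binding. The 5 stretches with the YY1 motif are shown because in each it lies 23 to 36 bases after the start and holds the letters of a start codon. Capitals mark the motif, and each is read 5′ to 3′ on the gene's strand.
Ndufa9: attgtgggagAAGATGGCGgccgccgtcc
Ndufc1: cctgcggaacAAGATGGCGccgtccgtag
Ndufs4: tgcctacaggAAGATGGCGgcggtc
Ndufs6: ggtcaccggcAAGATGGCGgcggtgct
Ndufs7: ggccgaggccAAGATGGCGgcgctggcgg
They lie at chr6:126849097-126849125 for Ndufa9, chr3:51408915-51408943 for Ndufc1, chr13:114388045-114388069 for Ndufs4, chr13:73328433-73328459 for Ndufs6 and chr10:80249463-80249491 for Ndufs7, all on the minus strand except Ndufs7. These 5 genes ranged from 20.5 CPM (Ndufa9) to 63.7 CPM (Ndufs6), all below the high tier, and their log2 fold changes (KO-labelled over WT-labelled) from -0.03 to 0.26.

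The NRF1 motif stood 60 bases before the start of Ndufa11 and 9 bases before that of Ndufa8, both of the proximal membrane arm, shown to compare their flanks; that of Ndufa8 is the reverse complement.
Ndufa11: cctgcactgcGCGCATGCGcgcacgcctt
Ndufa8: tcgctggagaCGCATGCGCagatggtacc
These stretches are chr17:56717692-56717720 on the plus strand and chr2:36049329-36049357 on the minus strand. The levels of these genes were 46.4 and 128 CPM and their log2 fold changes 0.22 and 0.22.

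The promoters of 3 of the 4 most abundant genes, Ndufa3, Ndufb7 and Ndufb11, are shown as the upstream sequence of the high tier, up to 30 bases past the first annotated start. They lie at chr7:3617123-3617402 on the plus strand, chr8:83566508-83566700 on the plus strand and chrX:20617590-20617869 on the minus strand.
Ndufa3: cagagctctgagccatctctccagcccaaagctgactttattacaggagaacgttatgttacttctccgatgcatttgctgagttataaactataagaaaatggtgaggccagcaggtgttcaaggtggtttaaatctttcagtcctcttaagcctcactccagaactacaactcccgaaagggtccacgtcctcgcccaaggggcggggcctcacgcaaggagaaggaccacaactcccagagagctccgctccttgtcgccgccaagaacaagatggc
Ndufb7: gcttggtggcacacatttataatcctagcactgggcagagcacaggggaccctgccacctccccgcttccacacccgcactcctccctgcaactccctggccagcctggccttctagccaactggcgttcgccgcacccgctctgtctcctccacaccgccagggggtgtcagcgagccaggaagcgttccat
Ndufb11: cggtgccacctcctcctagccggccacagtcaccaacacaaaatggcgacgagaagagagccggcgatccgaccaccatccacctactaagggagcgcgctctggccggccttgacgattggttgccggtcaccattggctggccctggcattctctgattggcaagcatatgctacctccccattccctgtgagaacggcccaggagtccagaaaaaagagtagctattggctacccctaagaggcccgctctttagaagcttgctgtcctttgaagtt
These stretches hold none of the 3 motifs, and so no letters are in capitals. The ETS match of Ndufb7 lies outside the stretch shown, 20 bases before the RefSeq start.

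None of the 36 genes passed the test between the groups. By edgeR's quasi-likelihood test, with Benjamini-Hochberg adjustment over the 10397 genes tested and a threshold of 0.05, 0 of 36 were called, where 1.03% of all tested genes were called. None was called higher or lower, beside 0.24% of all tested genes called higher and 0.789% called lower. The smallest adjusted p was 0.358, and 3 of 36 (8.33%) had an unadjusted p under 0.05, against 11.4% of all tested genes. These were Ndufa3, Ndufa6 and Ndufs8, all above 0, beside 5.03% of all tested genes with such a p and a positive fold change. DESeq2 called 0 (4 with an unadjusted p under 0.05), where it called 1.38% of its tested genes. Limma-voom called 0 (3 with an unadjusted p under 0.05), where it called 0.789%. Log2 fold changes (KO-labelled over WT-labelled) ran from -0.20 for Ndufa5 to 0.32 for Ndufs8, with standard errors of 0.08 to 0.19. The precision bounds these differences: for 35 of 36 genes (97.2%) the 95% interval of the fold change, not adjusted for the number of genes, lay wholly within 1.5-fold in either direction. The same held for 87.3% of the 4735 other tested genes in the same range of mean CPM. The exception was Ndufs8, with an interval of 1.02-fold to 1.54-fold.

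**Figure D2:**
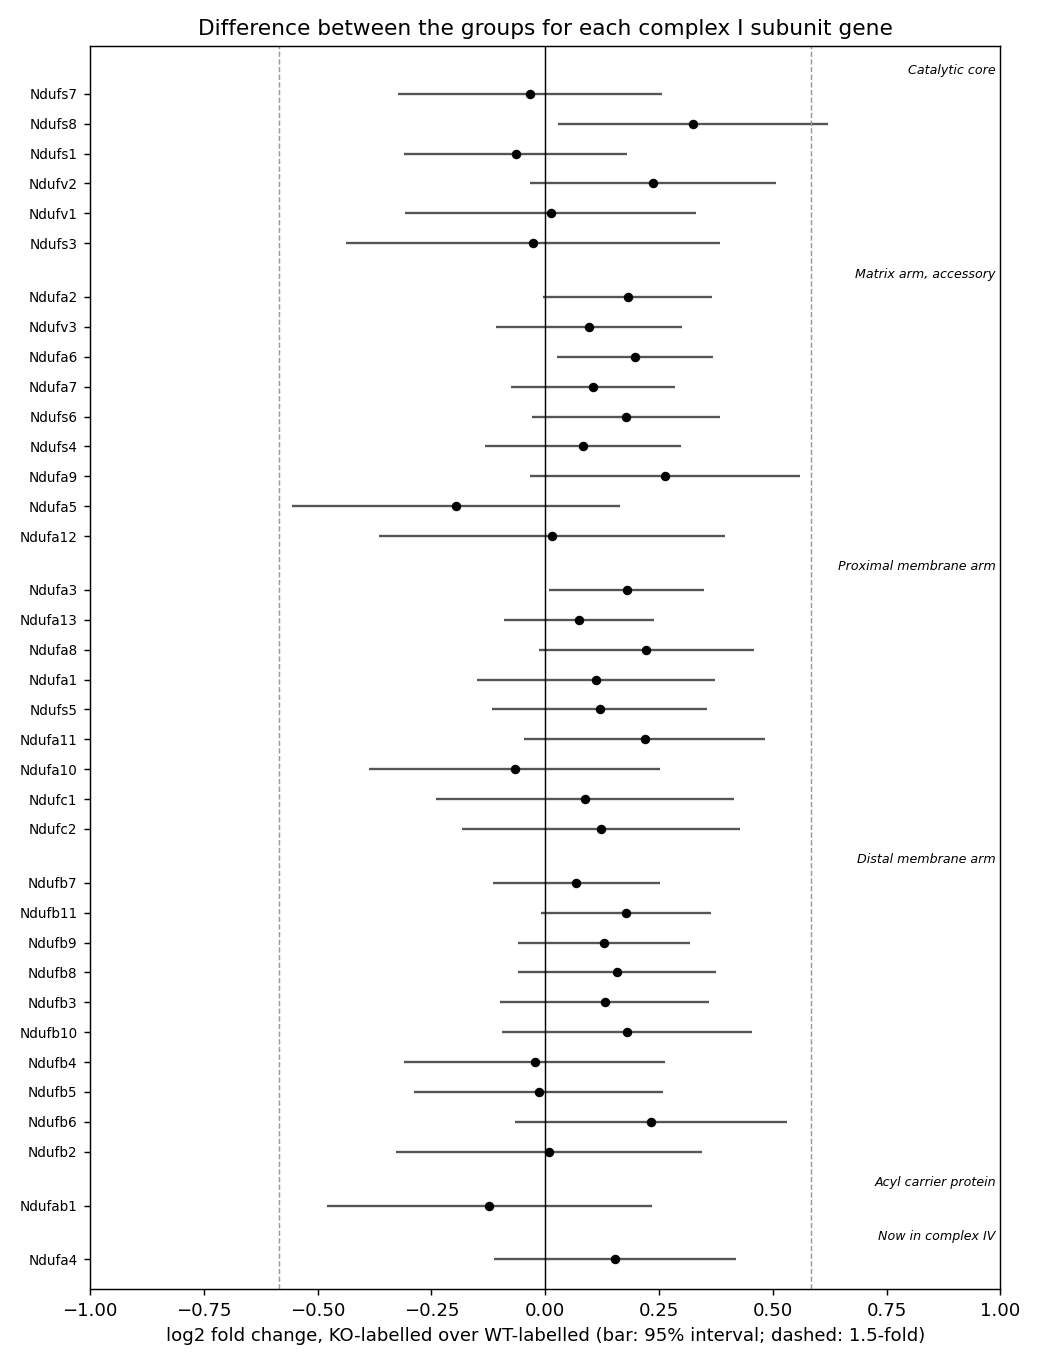
Log2 fold change of each subunit gene, KO-labelled over WT-labelled, with its 95% interval (bar), in the same order as the plot of levels; dashed lines mark 1.5-fold. All intervals but that of Ndufs8 stay inside the dashed lines, and 28 of 36 points lie to the right of 0.

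The fold changes lay slightly above 0 as a group. With TMM factors 28 of 36 genes (77.8%) were above 0 and 8 below. That share was 50.9% over all tested genes and 57.3% over the other tested genes in the same range of mean CPM. It was 73.7% over the 38 tested subunit genes of respiratory complexes II to V. The median of the 36 genes was 0.12, beside 0.01 over all tested genes and 0.03 over the tested genes in the same range of mean CPM. With scaling to total counts alone the median of all tested genes moved to -0.10 and that of the subunit genes to 0.01, with 20 genes above and 16 below 0. The difference between the medians of the subunit genes and of all genes was 0.11 under both, which a scaling of whole libraries leaves nearly unmoved by construction. It was 0.07 without WT 3 and 0.09 without KO 2. No set test was made of this shift, and it is given as a description of these libraries.

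By library, the summed level was 2290.3, 2285 and 2125 CPM in WT 1, 2 and 3 and 2418, 2512 and 2392 CPM in KO 1, 2 and 3. The 3 KO-labelled libraries all lay above the WT-labelled ones on this scale, and WT 3 was the lowest of the 6. As a share of all counts, without TMM factors, the groups overlapped: 0.225% to 0.237% in the WT-labelled and 0.233% to 0.239% in the KO-labelled libraries. The lowest share, in WT 3, had a 95% Wilson interval of 0.222% to 0.229% and the highest, in KO 2, of 0.235% to 0.242%, which cover counting error only. In WT 3 10 of 36 genes were above their WT-labelled mean, compared with 21 in WT 1 and 21 in WT 2, and with 27, 29 and 28 in KO 1, KO 2 and KO 3. Without WT 3 the median log2 fold change of the 36 genes was 0.08 in place of 0.12.

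**Figure D3:**
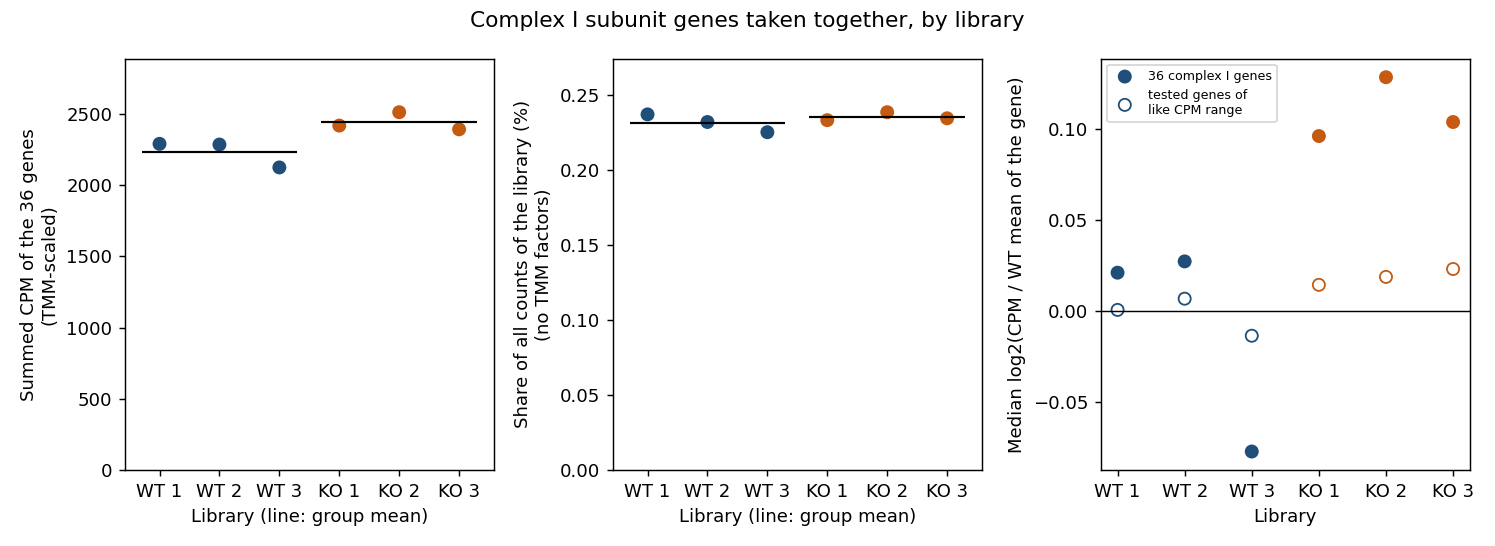
The 36 genes together in each library (blue WT-labelled, orange KO-labelled): summed CPM scaled by TMM factors (left, 2125 to 2512 CPM), share of all counts without TMM factors (middle, 0.225% to 0.239%; lines are group means), and median log2 ratio to each gene's WT-labelled mean (right; open circles are all tested genes in the same CPM range). The groups are apart on the left and right and overlap in the middle, and WT 3 is the lowest.

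Of the core genes, Ndufs8 had the largest fold change of all 36 with all libraries in the fit. Its level was 24.3, 34.8 and 30.5 CPM in WT 1, 2 and 3 and 34.6, 41.1 and 37.0 CPM in KO 1, 2 and 3. The groups overlapped, since KO 1 was below WT 2, and WT 1 was the low library. The log2 fold change was 0.32 (SE 0.14, adjusted p = 0.382, edgeR). Without WT 1 it was 0.20 and without KO 2 0.26, and in both fits another of the 36 genes had the largest value (0.33 and 0.31). Ndufv2, a partner of Ndufv1 at the NADH-binding tip, went from 25.7 ± 2.5 to 30.4 ± 1.1 CPM (SD, n = 3), with groups that did not overlap and an adjusted p of 0.515 (edgeR). The other 4 core genes lay between -0.06 and 0.01 on the log2 scale. The core as a whole had 3 genes above and 3 below 0 (median -0.01), whereas the medians of the 3 accessory groups were 0.11 in the matrix arm, 0.12 in the proximal and 0.13 in the distal membrane arm. The difference between core and accessory genes was not tested.

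Among the accessory genes of the matrix arm, Ndufa6 had the lowest p of all 36. Its product is an LYR-motif protein that docks the acyl carrier protein to the arm. Levels were 102, 102 and 95.7 CPM in WT 1, 2 and 3 and 115, 117 and 110.3 CPM in KO 1, 2 and 3. All KO-labelled libraries lay above all WT-labelled ones, and this order held with total-count scaling as well. The log2 fold change was 0.20 (SE 0.08, adjusted p = 0.358, edgeR), so the separation did not pass the test across all genes.

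Ndufa2, which has a thioredoxin-like fold, stood at 147, 139 and 135 CPM in WT 1, 2 and 3 and at 166, 168 and 143 CPM in KO 1, 2 and 3. KO 3 fell within the WT-labelled range (log2 0.18, SE 0.09, adjusted p = 0.458, edgeR). Ndufa5 had the lowest fold change of the 36 genes, with 18.8, 20.2 and 17.2 CPM in WT 1, 2 and 3 and 17.3, 19.1 and 13.02 CPM in KO 1, 2 and 3. Only KO 3 was below the WT-labelled range (log2 -0.20, SE 0.17, adjusted p = 0.743, edgeR), and the value was -0.05 without KO 3 and -0.31 without KO 2. Ndufs4 and Ndufs6, needed late in assembly when the NADH-binding end is added, did not pass the test either (adjusted p = 0.834 and 0.530, edgeR). Ndufs4 was at 53.2 ± 5.9 CPM in WT 1 to 3 and 56.5 ± 0.37 CPM in KO 1 to 3, and Ndufs6 at 59.9 ± 1.5 and 67.6 ± 7.3 CPM (SD, n = 3).

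In the proximal membrane arm, Ndufa3, a small membrane-spanning subunit, was the most abundant complex I transcript in every library. It was at 208, 195 and 186 CPM in WT 1, 2 and 3 and at 215, 231 and 219 CPM in KO 1, 2 and 3. The groups did not overlap, by a margin of 208 against 215 CPM, and they overlapped with total-count scaling (log2 0.18, SE 0.08, adjusted p = 0.405, edgeR). Ndufa13, also known as Grim19, was among the steadiest genes: 131 ± 2.1 CPM (SD, n = 3) in WT 1 to 3 and 138 ± 2.9 CPM in KO 1 to 3. Its KO-labelled libraries were all higher with TMM factors and all lower with total-count scaling, so its direction rests on the scaling. Against counting error, Ndufa8 and Ndufa1 were the least steady, with a spread of counts within groups 15.3 and 17.3 times the counting variance. The median over the 36 genes was 3.47. By coefficient of variation, Ndufa10 and Ndufc1 of this arm spread more in the KO-labelled group (21.4% and 20.7%, beside 8.2% and 14.6%). In the WT-labelled group they spread less (6.9% and 6.3%, beside 16.1% and 15.7%). Ndufa1 ran from 82.1 to 112 CPM among the WT-labelled and from 86.7 to 114 CPM among the KO-labelled libraries.

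In the distal membrane arm, the lowest p belonged to Ndufb11. It was at 134, 131 and 116 CPM in WT 1, 2 and 3 and at 135, 153 and 143 CPM in KO 1, 2 and 3, so that the groups were apart by 134 against 135 CPM (log2 0.18, SE 0.09, adjusted p = 0.474, edgeR). Ndufb7, a cysteine-rich subunit, was at 156, 153 and 141 CPM in WT 1, 2 and 3 and at 161, 167 and 144 CPM in KO 1, 2 and 3. The groups overlapped, and its log2 fold change of 0.07 (SE 0.09, adjusted p = 0.842, edgeR) was -0.04 with total-count scaling. Ndufb9, the LYR-motif protein that holds the second acyl carrier protein, was at 109.7 ± 5.5 and 120.1 ± 10.6 CPM (SD, n = 3; adjusted p = 0.655, edgeR). The other 7 genes of this arm lay between -0.02 and 0.23 on the log2 scale.

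Ndufab1 stood at 15.4, 15.1 and 16.1 CPM in WT 1, 2 and 3 and at 12.6, 17.02 and 13.2 CPM in KO 1, 2 and 3. KO 1 and KO 3 were below the WT-labelled range and KO 2 above it (log2 -0.12, SE 0.17, adjusted p = 0.851, edgeR). The value was -0.04 without KO 1, -0.07 without KO 3 and -0.26 without KO 2. Ndufa4, long listed as a complex I subunit and now placed in complex IV (cytochrome c oxidase), was at 24.3, 24.5 and 25.002 CPM in WT 1, 2 and 3 and at 28.1, 25.5 and 28.4 CPM in KO 1, 2 and 3. The groups did not overlap with TMM factors and did with total-count scaling (log2 0.15, SE 0.12, adjusted p = 0.721, edgeR). Its paralog Ndufa4l2, a hypoxia-induced gene, had 0 counts in each library, which at a floor of 3 counts allows up to 0.306 to 0.440 CPM. Leaving Ndufa4 out, the median of the remaining 35 genes was 0.11.

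Groups that did not overlap were found for 7 of the 36 genes, all higher in the KO-labelled libraries: Ndufa3, Ndufa4, Ndufa6, Ndufa9, Ndufa13, Ndufb11 and Ndufv2. That is 19.4%, beside 7.48% of all tested genes that were higher without overlap, and 0 of 36 were lower without overlap, beside 9.32%. With total-count scaling 1 gene remained higher (Ndufa6; 2.86% of all tested genes) and 3 were lower (Ndufa5, Ndufa13 and Ndufs1; 16.8% of all tested genes). The count of separated genes therefore depends on the scaling. The neutrophil marker sum, most of it from S100a8 and S100a9, was higher in all KO-labelled libraries, and its part in this dependence was not tested.

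**Figure D4:**
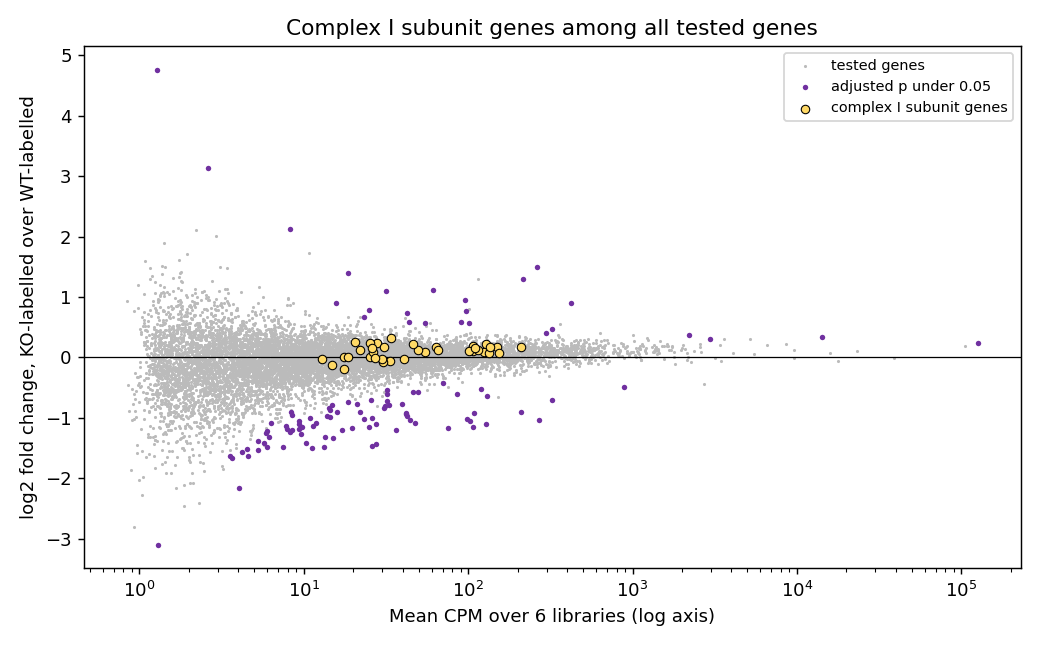
Log2 fold change, KO-labelled over WT-labelled, against mean CPM (log axis) for the 10397 tested genes (grey), the 107 called genes (purple) and the 36 complex I genes (yellow). The complex I genes lie between -0.20 and 0.32, inside the grey band, and none coincides with a called gene.

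Genes that serve complex I were measured beside the subunits. Of 18 listed assembly factors, 17 were in the table and 11 were tested. By edgeR 0 of 11 were called, beside 1.03% of all tested genes. The interval of the fold change lay within 1.5-fold in either direction for only 3 of 11 (27.3%). Larger differences are therefore not excluded for the others. Ndufaf4 and Dmac1, 2 of 11 (18.2%), were lower without overlap, beside 9.32% of all tested genes, and 0 were higher without overlap, beside 7.48%. The tested factors had a median level of 7.22 CPM, below the 37.3 CPM of the subunits. Their range, 1.39 to 15.2 CPM, overlapped the low end of the subunits, which began at 12.8 CPM (Ndufs3). Their median log2 fold change was -0.02. The lowest p belonged to Ndufaf4, which acts early in assembly, with 17, 20 and 13 counts in WT 1, 2 and 3 and 10, 7 and 12 counts in KO 1, 2 and 3 (log2 -0.65, SE 0.47, adjusted p = 0.668, edgeR). All KO-labelled libraries were lower in CPM, on counts too few for a narrow interval (0.319-fold to 1.27-fold). Ndufaf2, Ndufaf5, Ndufaf6, Acad9, Nubpl and Tmem186 had too few counts to be tested, with at most 12 in any library.

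Of 12 listed nuclear transcription factors and coactivators of respiratory genes, 8 were tested. By edgeR 0 of 8 were called, beside 1.03% of all tested genes (median log2 fold change of the 8, 0.06). The interval of the fold change lay within 1.5-fold in either direction for 6 of 8 (75%). Yy1 (82.5 and 86.5 CPM in the WT-labelled and KO-labelled groups) and Nrf1 (43.1 and 49.6 CPM) were the most abundant. Ppargc1a, the coactivator that drives mitochondrial biogenesis in muscle and brown fat, had 1 count in all 6 libraries together. Tfb2m, a mitochondrial transcription factor, had the lowest p, with 3.55, 6.22 and 5.78 CPM in WT 1, 2 and 3 and 3.36, 3.52 and 2.67 CPM in KO 1, 2 and 3. The KO-labelled libraries were all lower (log2 -0.71, SE 0.32, adjusted p = 0.409, edgeR). The interval for Tfb2m, not adjusted for the number of genes, ran from 0.381-fold to 0.979-fold.

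The other respiratory complexes, II to V, gave no called gene by edgeR either: 0 of 38 tested subunits, beside 1.03% of all tested genes. The 95% interval lay within 1.5-fold in either direction for 34 of the 38. Median log2 fold changes were -0.07 for complex II (4 genes), 0.05 for complex III (9 genes), 0.14 for complex IV (10 genes) and 0.11 for complex V (15 genes), beside 0.12 for complex I. The median level of the complex I genes, 37.3 CPM, was below those of complex IV (184 CPM) and complex V (146 CPM). Atp5h of complex V had the lowest p of the respiratory genes, at 211, 217 and 195 CPM in WT 1, 2 and 3 and 239, 266 and 249.7 CPM in KO 1, 2 and 3 (log2 0.27, SE 0.08, adjusted p = 0.157, edgeR). The groups did not overlap, and DESeq2 called it. Cox5b had the lowest p of complex IV, at 192, 177 and 162 CPM in WT 1, 2 and 3 and 211, 207 and 211 CPM in KO 1, 2 and 3 (log2 0.24, SE 0.08). Sdhb, of complex II, was at 103, 104 and 95.2 against 124, 109.6 and 105 CPM (log2 0.17, SE 0.09). Uqcrq, of complex III, was at 104, 116 and 107 against 118, 133 and 119 CPM (log2 0.18, SE 0.09). For these 3 genes too the KO-labelled libraries were all higher, and the adjusted p was 0.242 to 0.506 (edgeR). Atp5h and these 3 were picked for the lowest p of their lists. Of all 38 genes 12 (31.6%) were higher without overlap, beside 7.48% of all tested genes, and 1 (2.63%) was lower, beside 9.32%. With total-count scaling the log2 fold changes were 0.17 (Atp5h), 0.14 (Cox5b), 0.07 (Sdhb) and 0.07 (Uqcrq). Differences between the complexes were not tested.

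**Figure D5:**
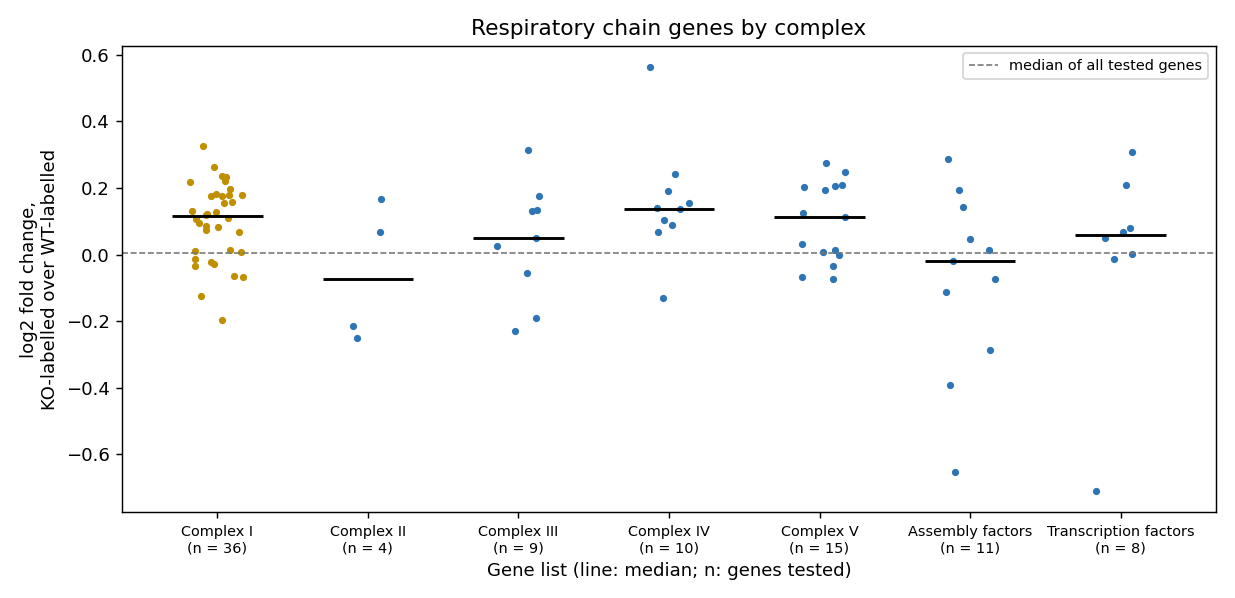
Log2 fold change, KO-labelled over WT-labelled, of each tested gene by list (points), with the list median (line) and the median of all tested genes (dashed, 0.01). The medians of complexes I, IV and V are 0.12, 0.14 and 0.11 and that of the assembly factors is -0.02; no point shown was called.

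Several of the genes have copies or neighbours that could share their reads. A processed pseudogene at least 95% identical to the last 300 bases over at least 100 bases was found for 7 of 36 genes, and for 2 of them it had more than 10 counts in a library: Gm15920 (24 to 75 counts) for Ndufa12 (104 to 195 counts), and BC002163 (2 to 36 counts) for Ndufs5 (308 to 526 counts). Ndufb4c, a pseudogene related to Ndufb4 by name, had 75 to 154 counts beside 199 to 278 for Ndufb4. The values of Ndufa12, Ndufs5 and Ndufb4 are uncertain to that extent. Exons of 13 genes overlap a gene on the other strand, among them Ndufb2 with Braf (484 to 786 counts) and Ndufb11 with Rbm10 (122 to 154 counts), and the sources used here do not give the strand setting of the counting.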

How the data were processed

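Whole-number, unscaled counts by Ensembl gene for 6 QuantSeq libraries were deposited by the authors, and columns were assigned to samples by name. The submitters' processing notes name RSEM 1.2.3, mm10 and DESeq2 without a role; the sources used here do not give the aligner, annotation release or filters. Symbols from the reference table matched 51596 of 51789 identifiers (the rest held 0.00812% of counts), and positions came from GENCODE vM21 (GRCm38, the assembly of mm10).

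The fit used edgeR 4.0.16 in R 4.3.3 (glmQLFit, glmQLFTest) with TMM factors, filterByExpr at its defaults (minimum count 10), the group as the one term, and Benjamini-Hochberg adjustment over 10397 genes at 0.05. It was tested on simulated data. Standard errors are the log2 fold change divided by the root of F, and 95% intervals use the fit's degrees of freedom. One count was worth 0.102 to 0.147 CPM, and counting error alone gives a coefficient of variation of 2.25% to 11.5% at the counts of these genes. The chi-square per degree of freedom between replicates of a group was 4.12 to 6.79, so no library repeats another. The genes, their lists and the tests were chosen with earlier results of these data known.

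Values in every library are given for the 4 subunit genes highest in level, the 4 lowest in p, the extremes of fold change, the lowest p in each structural group, Ndufa4 and Ndufab1; of the other lists, the lowest p. Others are named to show a range. Alternatives were DESeq2 1.42.0, limma-voom (limma 3.58.1), other scalings and filters, the replicate number as a block, and leaving out each library. Total-count overlaps and the median without Ndufa4 were added after seeing the data.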

Additional observations from a re-analysis of the deposited data

How the results depend on the processing

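The count of 0 subunit genes called in either direction was the same under every alternative run. The median log2 fold change of the 36 genes was 0.013 with total-count scaling, where the median of all tested genes fell to -0.10; with other scalings, filters or tools it ran from 0.09 to 0.13, and without 1 library from 0.08 (WT 3) to 0.13 (WT 2). Of all tested genes 107 were called, compared with 162 with total-count scaling, 287 with no filter on low counts and 50 to 101 without 1 library (61, 50 and 65 without WT 1, 2 or 3, 69 and 66 without KO 1 or 2). With total-count scaling 1 subunit gene was higher and 3 lower without overlap, in place of 7 and 0. Ndufb7 changed sign with total-count scaling (-0.035). Atp5h passed the threshold with DESeq2 (0.28) and in no other fit. The other genes given in every library by the naming rule kept their sign and their side of the threshold in the alternatives run. Of all 36 subunit genes 28 were above 0, and 20 with total-count scaling, under which the order of the groups turned for Ndufa13. Ndufs8 ran from 0.20 to 0.45, Ndufa5 from -0.31 to -0.05 and Ndufab1 from -0.26 to -0.04 without 1 library. With the replicate number as a block 92 genes were called, 0 of them subunit genes, and the median of the subunit genes was 0.11. Same-numbered libraries did not deviate together (correlations of -0.03, -0.01 and -0.13, beside -0.17 to 0.18 for the other pairs). With 3 libraries in each group these correlations cannot show whether the numbers mark a pairing, and the labels state none. The largest standard error of the 36 genes, 0.19, was that of Ndufs3, the gene with the lowest level. Its interval ran from 0.738-fold to 1.305-fold. The spread of its counts within groups was 2.91 times the counting variance, and the part of depth in this width was not tested.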
